A study of Ovis aries with 2 samples.

Results

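Integrins and cadherins are the main receptors by which cells hold on to the matrix and to each other. The genes described here are the 48 names of the deposited transcript table that follow the symbol patterns of integrin alpha subunits (numbered, or lettered D, E, L, V or X), integrin beta subunits 1 to 8 and numbered cadherins, out of 15490 gene names. They comprise 17 integrin alpha subunits, 8 integrin beta subunits and 23 cadherins, over 51 transcript entries. Names were chosen by symbol, though with earlier results of these data known, and the patterns leave out ITGAM. For description they were divided into 7 leukocyte integrins (ITGAL, ITGAX, ITGAD, ITGAE, ITGA4, ITGB2 and ITGB7), 18 other integrins and the cadherins.

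RNA came from the granulosa cell layer of multiparous Hu sheep ewes, aged 3 to 4 years, on different feed allowances in the luteal phase. The supplemented group, 8 ewes, was fed at 1.5 times maintenance (1560 g per ewe each day). The restricted group, also 8 ewes, was fed at 0.5 times maintenance (520 g). The layer was scraped by hand from follicles wider than 2.5 mm, so other cells of the follicle wall can be present. Each group gave 1 library. The reads recovered over all deposited transcript entries summed to 9426679 (supplemented) and 11299773 (restricted). These are called all reads below, and reads outside the entries are not counted. With no replicates, the variation between ewes is unknown and the diets themselves were not tested. Every interval below is an exact 95% Clopper-Pearson interval of the read ratio and covers counting error only.

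An integrin is a pair of 1 alpha and 1 beta subunit that spans the membrane, binds matrix or another cell outside and couples to actin through talin and kindlin inside. ITGB1 and the alpha V subunit serve most tissue cells, whereas ITGB2 and ITGB7 are made mainly by white blood cells. Classical cadherins bind the same cadherin on the next cell and hold actin through beta- and alpha-catenin. In the follicle, N-cadherin (CDH2) and E-cadherin (CDH1) join granulosa cells, and integrins such as the alpha 6 and beta 1 pair hold them to the laminin of the basal lamina.

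The leukocyte integrins were higher in the supplemented library, the abundant integrins of tissue cells differed little, and the cadherins CDH6, CDH12 and CDH1 were lower. Counted by intervals wholly below 1, the share of cadherins that were lower was near that of all genes, as given below. By the size rule given below, 2 of the 8 cadherins it covers were lower, against 2.85% of all genes it covers. Summed over the 7 leukocyte integrins there were 1625 supplemented against 521 restricted reads, a 3.23-fold higher scaled ratio (2.92 to 3.57). Over the 18 other integrins there were 30328 against 38124 reads, a 1.21-fold lower ratio (1.20 to 1.23). That is near the ratio of the reads summed over all genes, which was 1.16-fold lower. ITGB5 held 18461 and 24676 of the other integrin reads, and without it the ratio was 1.09-fold lower (1.07 to 1.12). Over the 23 cadherins there were 8905 against 12480 reads, 1.35-fold lower (1.32 to 1.39). ITGB2 alone held 788 and 149 of the leukocyte integrin reads, and without it the ratio was 2.33 (2.06 to 2.64). CDH2 held most cadherin reads, and without it the cadherin ratio was 1.70-fold lower (1.61 to 1.79). Of the 2275 and 4001 reads then left, CDH12 held 672 and 1934, CDH6 102 and 383 and CDH1 83 and 282. The 1.70 thus rests largely on these genes and does not describe the remaining cadherins.

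Of the 48 members, 45 had at least 1 read and 24 had a mean of at least 1 FPKM (reads per kilobase of transcript), which is called measured here. Between the libraries, FPKM ratios match the ratios of scaled reads and are not scaled to each library's total reads. All 7 leukocyte integrins had a counting interval wholly above a ratio of 1, against 17.5% of all 16560 genes with reads. Here and below, counts over all genes include unnamed entries, each taken as 1 gene. Among the 17 other integrins with reads, 6 intervals lay above 1 and 4 below. The classes thus overlap. The read ratios of ITGB3 (6.56), ITGA9 (2.39), ITGA5 (2.06) and ITGA2B (1.70) exceeded those of the leukocyte integrins ITGAE (1.59) and ITGB7 (1.57), with overlapping intervals. Among the 21 cadherins with reads, 2 lay above and 6 below, which is near the 26.8% of all genes with reads that lay below. When each library was scaled to its share of all reads, the counts above and below were 7 and 0 for the leukocyte integrins, 7 and 3 for the other integrins and 4 and 4 for the cadherins. Over all genes the shares were then 29.2% above and 14.5% below. An interval is more often clear of 1 for a gene with many reads, so these counts depend on abundance.

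By size, the threshold was 1 on log2((supplemented FPKM + 1) / (restricted FPKM + 1)), a scale that understates the difference of low genes. ITGB2 and ITGAL were higher by this rule, which took 5.87% of the 11927 measured genes, and CDH6 and CDH12 were lower, which took 2.85%. ITGAX (0.92) and CDH1 (-0.96) lay just short of the threshold. The 5 measured leukocyte integrins had a median log2 ratio of 0.92, the 11 other integrins -0.01 and the 8 cadherins -0.34, beside -0.08 over all measured genes. ITGAL passed the filter on mean FPKM only through its supplemented value, and CDH1 and ITGA2 only through their restricted values, so these medians are given as description. Over all members with reads the medians were 0.48, -0.01 and -0.03.

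**Figure D1:**
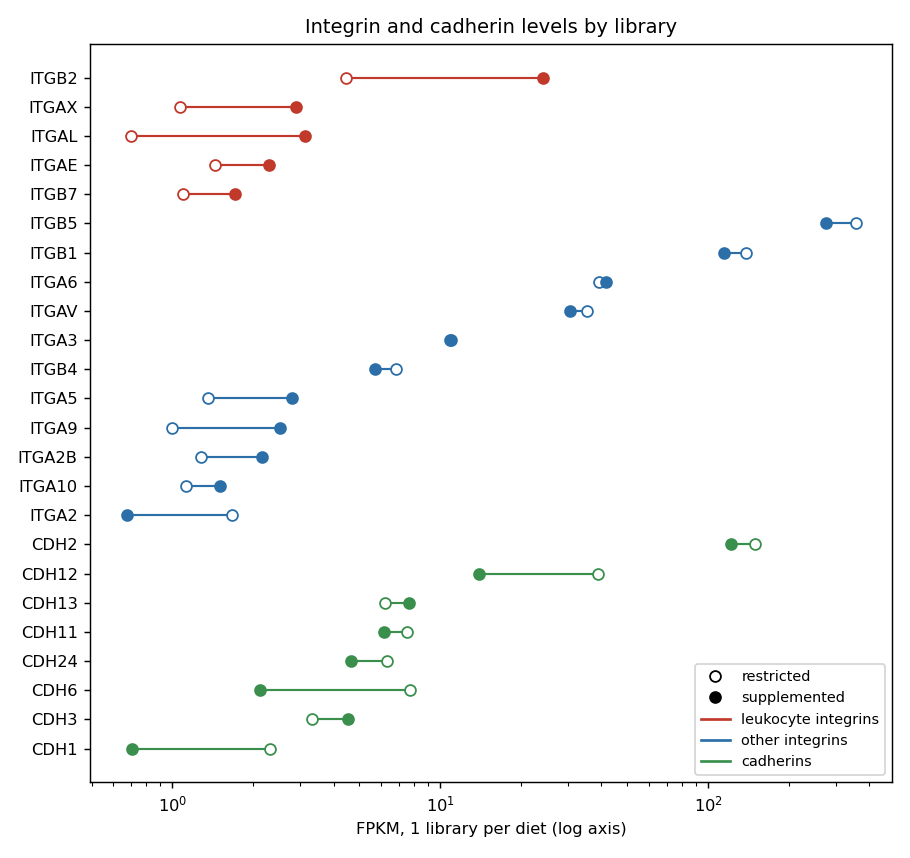
FPKM (log axis) of the 24 members with a mean of at least 1 FPKM, 1 open point for the restricted and 1 filled point for the supplemented library, coloured by class. All 5 leukocyte integrins lie to the right in the supplemented library, and ITGB5, ITGB1 and CDH2 lie above 100 FPKM in both.

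The scaling of the libraries decides the direction of small differences. By share of all reads, every read ratio moved up by 0.21 on the log2 scale, and on the scale with the pseudocount the median of all measured genes moved from -0.08 to 0.11. The other integrins then had a median of 0.18 and the cadherins -0.15. ITGA3 turned from below 0 (-0.01) to above (0.18), while ITGB1 (-0.05), ITGAV (-0.01), ITGB4 (-0.04) and CDH11 (-0.07) stayed just below. These 4, and also ITGB5, CDH2 and CDH24, turned above 0 when centred on granulosa markers, a scaling added after seeing the data.

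Among the leukocyte integrins, ITGB2, the beta 2 chain (CD18) shared by the integrins of neutrophils, macrophages and lymphocytes, stood at 24.3 FPKM in the supplemented library and 4.44 in the restricted one. Its read ratio was 5.48 (4.59 to 6.57). It is the 1 member that the authors' deposited table calls at q below 0.05 (q = 0.00531), where 0.758% of 18469 entries with reads are called higher and 0.162% lower. The entry lies on chromosome 1 from 262869672 to 262891619 of Oar_v3.1.

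ITGAL, ITGAX and ITGAD, alpha subunits that pair with ITGB2, were higher in the same library. ITGAL (CD11a), which with ITGB2 forms the lymphocyte integrin LFA-1, stood at 3.14 against 0.703 FPKM, or 229 against 53 reads, a ratio of 4.47 (3.31 to 6.15). ITGAX (CD11c), carried by macrophages and dendritic cells, stood at 2.91 against 1.07 FPKM, or 216 against 82 reads, a ratio of 2.73 (2.11 to 3.56). ITGAD (CD11d), a subunit of tissue macrophages, had 12 against 2 reads (6.21, 1.38 to 57.1). Together these 3 alpha subunits had a ratio of 3.45 (2.85 to 4.21). ITGAX thus lay below ITGB2, with intervals that did not overlap, while the intervals of ITGAL and ITGB2 overlapped.

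ITGA4, ITGAE and ITGB7 belong to the homing integrins of lymphocytes, in which ITGB7 pairs with either alpha subunit. ITGA4, which also pairs with ITGB1 on monocytes and lymphocytes, stood at 0.856 against 0.331 FPKM, or 55 against 22 reads (2.59, 1.55 to 4.46). ITGAE (CD103), the alpha E subunit that binds E-cadherin, stood at 2.29 against 1.45 FPKM (1.59, 1.26 to 2.01). ITGB7 stood at 1.72 against 1.10 FPKM (1.57, 1.19 to 2.08). The intervals of ITGAE and ITGB7 lay wholly below that of ITGB2. ITGAE shares its locus with GSG2, a kinase gene, and reads of the overlapping genes may not be fully separated.

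Markers of white blood cells moved with these integrins. All 13 leukocyte markers in the table were higher by size, with read ratios from 3.98 (PTPRC) to 7.78 (CD163), and their summed FPKM was 571 in the supplemented library and 114 in the restricted one. ITGB2, ITGAL and ITGAD lay within that range and ITGAX, ITGA4, ITGAE and ITGB7 below it. Of 11 markers of T, B and NK cells in the table, 5 had an interval above 1 (17.5% over all genes) and 0 below. Their summed FPKM was 33.2 against 11.8, CD3E stood at 7.29 against 4.74 FPKM, and the B cell markers CD79B and MS4A1 had at most 1 read in each library. The part of leukocyte number in the integrin values was not tested, and more cells of a type and more RNA per cell cannot be told apart in bulk RNA.

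**Figure D2:**
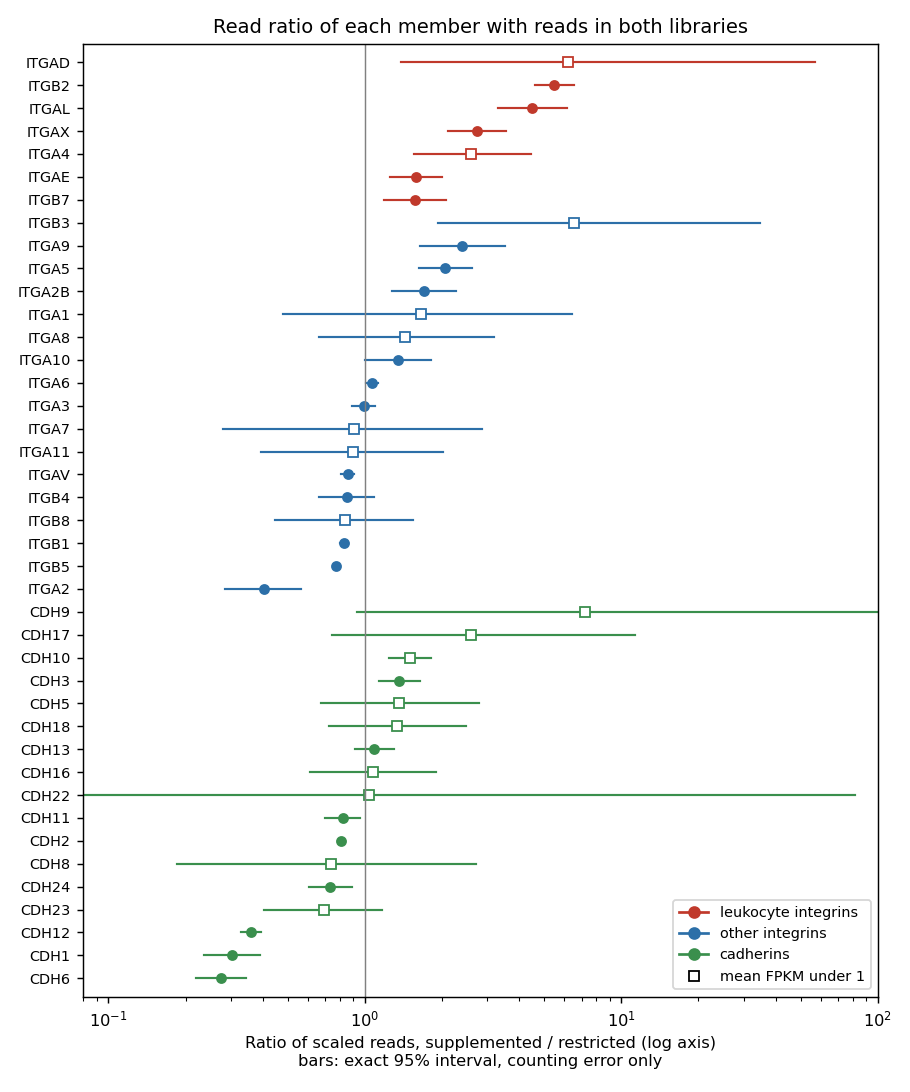
Ratio of scaled reads, supplemented over restricted (log axis), for each member with reads in both libraries, with exact 95% counting intervals as bars. Open squares are members with a mean under 1 FPKM, and the bars of CDH9 and CDH22 run past the axis. The 7 leukocyte integrins lie wholly above 1, and CDH6, CDH1 and CDH12 lie lowest.

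The integrins of tissue cells set the level of the family. ITGB5, the beta chain of the vitronectin receptor alpha V beta 5, was the highest member per unit length, at 276 FPKM in the supplemented library and 356 in the restricted one. ITGB1, the common beta chain, followed at 115 against 138 FPKM. ITGB5 was thus 2.40 times as high as ITGB1 in the supplemented library and 2.58 times as high in the restricted one. The read ratio of ITGB5 was 1.29-fold lower (1.27 to 1.32) and that of ITGB1 1.20-fold lower (1.16 to 1.25). By share of all reads the ITGB1 interval ended at 0.997, close to 1.

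Of the summed FPKM of the 8 beta subunits, ITGB5 took 65.2% in the supplemented library and 70.2% in the restricted one, and ITGB1 took 27.1% and 27.2%. ITGB2 went from 0.874% in the restricted library to 5.74% in the supplemented library. ITGB1 was 31.1 times as high as ITGB2 in the restricted and 4.73 times in the supplemented library. The remaining beta subunits were minor. ITGB4, the hemidesmosome partner of alpha 6, stood at 5.72 against 6.86 FPKM, summed over a pair of adjacent entries of that name on chromosome 11. ITGB8, an activator of latent TGF-beta with alpha V, had 21 against 26 reads, and ITGB6, an epithelial beta chain, had 0 reads in both, where 0 allows up to 3 reads.

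ITGB3, the beta chain of the platelet fibrinogen receptor and of alpha V beta 3, had 19 against 3 reads (6.56, 1.93 to 34.6), at 0.348 against 0.0531 FPKM. Its platelet partner ITGA2B stood at 2.17 against 1.28 FPKM, or 133 against 81 reads (1.70, 1.28 to 2.27). Platelet markers were near 0, with PF4 at 9 against 3 reads, GP1BA at 4 against 0, and GP9 and GP6 without reads.

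**Figure D3:**
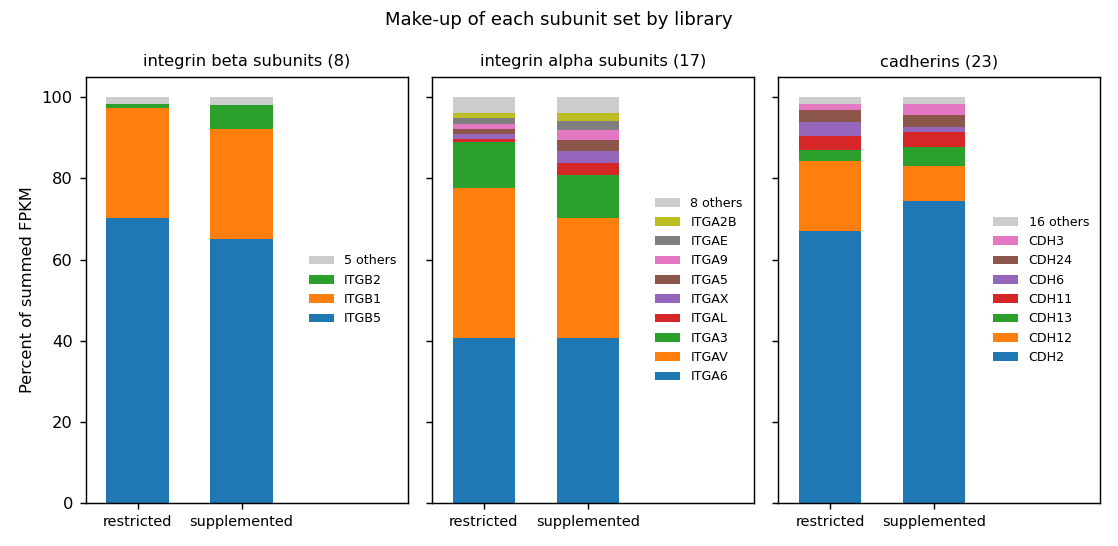
Percent of the summed FPKM of the integrin beta subunits, alpha subunits and cadherins taken by each gene, in the restricted and the supplemented library. Genes under 2 percent in both libraries are pooled in grey, and bars reach 100 percent. ITGB2 widens in the supplemented library, while CDH12 narrows.

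ITGA6, which binds laminin with ITGB1 or ITGB4, was the most abundant alpha subunit. It stood at 41.6 FPKM in the supplemented library and 39.0 in the restricted one (1.06, 1.01 to 1.12) and led the 17 alpha subunits in both, with 40.6% and 40.7% of their summed FPKM. ITGA3, another laminin receptor, stood at 10.85 against 10.96 FPKM (1.01-fold lower, 0.909 to 1.12), and by share of all reads its ratio was 1.15 (1.03 to 1.27). ITGA7, the laminin receptor of muscle, had 7 against 8 reads.

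The alpha V subunit ITGAV, partner of ITGB5, was second, at 30.4 against 35.4 FPKM (1.17-fold lower, 1.10 to 1.24). By share of all reads its ratio was 0.994 (0.936 to 1.05). ITGB5 stood 9.08 times and 10.1 times as high as ITGAV in FPKM in the supplemented and restricted libraries. ITGA5, the fibronectin receptor subunit, differed more, at 2.81 against 1.36 FPKM, or 215 against 108 reads (2.06, 1.63 to 2.62). ITGA8, a subunit of smooth muscle and mesenchyme, had 18 against 13 reads.

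ITGA9, which binds tenascin and VCAM1, stood at 2.53 against 1.00 FPKM over a pair of entries (2.39, 1.65 to 3.52). The entries cover neighbouring stretches of chromosome 19, and both were higher in the supplemented library, at 36 against 13 and 61 against 29 reads. In FPKM they stood at 1.43 against 0.499 and 1.09 against 0.502. Each alone had a mean under 1 FPKM, so ITGA9 is measured only through their sum.

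Collagen receptor subunits were low. ITGA2, the collagen receptor of platelets and epithelia, was the 1 alpha subunit apart from ITGAV with an interval below 1, at 0.677 against 1.67 FPKM, or 50 against 128 reads (2.47-fold lower, 1.77 to 3.50). ITGA10, first known from cartilage, stood at 1.51 against 1.13 FPKM, with an interval that just cleared 1 (1.34, 1.001 to 1.81). ITGA1 and ITGA11 had 8 against 5 and 13 against 15 reads, so no difference was detectable at this depth.

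Cadherins were led by CDH2 in both libraries. CDH2, N-cadherin, stood at 121 FPKM in the supplemented library and 150.0 in the restricted one, or 6630 against 8479 reads (1.24-fold lower, 1.20 to 1.28). It took 74.5% and 67.0% of the summed cadherin FPKM. By share of all reads its ratio was 0.937 (0.908 to 0.968), so the interval stayed below 1 and the size shrank.

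CDH1, E-cadherin of epithelia and early granulosa cells, stood at 0.709 against 2.33 FPKM, or 83 against 282 reads (3.28-fold lower, 2.56 to 4.24). CDH3, P-cadherin, whose entry lies next to CDH1 on chromosome 14, went the other way, at 4.55 against 3.33 FPKM (1.36, 1.13 to 1.64). CDH4 (R-cadherin) had 0 reads in both libraries, and CDH15 (muscle cadherin) had 0 against 1. The level of CDH2 was 171 times that of CDH1 in the supplemented library and 64.5 times in the restricted one.

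Over all genes with reads, 17.5% had an interval above 1 and 26.8% below. Of the markers of the ovarian surface epithelium, 0 of 7 with reads had an interval above 1 and 3 had an interval below. Their summed FPKM was 94.5 against 193. KRT18 stood at 2.90 against 9.18 FPKM, KRT8 at 22.1 against 36.1 and UPK1B at 66.5 against 144. The interval of EPCAM, at 1.78 against 2.49 FPKM, spanned 1 (0.422 to 1.20). KRT19 and MUC1, each under 1 FPKM, had 24 against 16 and 17 against 9 reads, also with intervals that spanned 1, while KRT7 had 3 against 0 reads and LGALS7 had none. Granulosa markers were lower as well, 8 of 8 with an interval below 1, and their summed FPKM was 9533 against 22842. The part of these cells in the CDH1 value was not tested.

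Type II cadherins held the 2 largest log2 differences among measured cadherins. CDH12, a cadherin named for brain, was second among the 23 at 13.9 FPKM in the supplemented library and 38.7 in the restricted one, or 672 against 1934 reads (2.78-fold lower, 2.55 to 3.04). CDH6, known from kidney, stood at 2.12 against 7.70 FPKM, or 102 against 383 reads (3.63-fold lower, 2.91 to 4.56). Both stayed below -1 on the log2 scale by share of all reads, at -1.21 for CDH12 and -1.33 for CDH6. The authors' deposited table gives q = 0.0673 for CDH12 and q = 0.175 for CDH6 and calls neither. CDH12 shares its locus with an entry named FTL, which had 18 against 11 reads, and reads of the overlapping entries may not be fully separated.

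Both genes lie on chromosome 16 of Oar_v3.1 among other type II cadherins. CDH6 spans 42084521 to 42144031, CDH9 46451126 to 46597673, CDH10 48677486 to 48865478, CDH12 51093711 to 51428550 and CDH18 53418157 to 53849614. None of the neighbours had an interval below 1. CDH10 had 284 against 196 reads (1.50, 1.25 to 1.81), CDH18 27 against 21 (1.33, 0.725 to 2.48) and CDH9 7 against 1 (7.25, 0.931 to 327). CDH10 is listed at only 0.167 and 0.111 FPKM despite its reads, because its entry carries 1731 scaled reads per FPKM, where the median over member entries is 61.4. That figure grows with the length of the transcript model, which the sources used here do not give, and the FPKM of CDH10 is uncertain.

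CDH11, a cadherin of mesenchyme, stood at 6.17 against 7.53 FPKM (1.22-fold lower, 1.04 to 1.43), and its interval spanned 1 by share of all reads. CDH24 stood at 4.65 against 6.34 FPKM (1.36-fold lower, 1.13 to 1.65), which also spanned 1 by that scaling. CDH5, the cadherin of endothelium, was low at 0.451 against 0.332 FPKM, or 21 against 16 reads (1.36, 0.676 to 2.79), and no difference was detectable. Of 8 endothelial markers with reads, 5 had an interval above 1 (17.5% over all genes) and 0 below. Their summed FPKM was 19.7 against 6.47. PECAM1, which leukocytes also carry, made up 10.4 and 1.79 of those sums.

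CDH13, a cadherin held to the membrane by a lipid anchor, stood at 7.62 against 6.25 FPKM, or 259 against 246 reads (1.09, 0.912 to 1.30), with an interval from 1.06 to 1.51 by share of all reads. A second CDH13 entry with 1 read in the supplemented library gave 0.835 of that FPKM, so the levels without it were 6.78 and 6.25. CDH16, CDH17 and CDH23 had between 4 and 39 reads per library, with intervals that spanned 1. CDH7, CDH8, CDH19, CDH20 and CDH22 had at most 7 reads in either library, and CDH26 had none.

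Partners of the 2 receptor families were examined as lists. Their counts by size are to be read beside the 5.87% of all measured genes that were higher and the 2.85% that were lower. Of 22 genes of integrin activation and focal adhesion, 21 were measured, 2 were higher by size, 0 were lower, and the median log2 ratio was 0.05. The higher ones were FERMT3, the kindlin of blood cells, at 53.2 against 14.8 FPKM (4.21, 3.52 to 5.05), and PARVG, the parvin of blood cells, at 24.9 against 7.15 FPKM on 37 against 11 reads. FERMT2, the kindlin of tissue cells, stood at 20.9 against 25.3 FPKM, and TLN1, talin 1, at 73.3 against 70.6. On the log2 scale these general forms differed by -0.26 (FERMT2) and 0.05 (TLN1).

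LIMS1 and ACTN1, adaptors between integrins and actin, stood at 20.98 against 12.03 and 9.53 against 5.25 FPKM. ITGB1BP1, an inhibitor of beta 1 activation, stood at 64.2 against 107 FPKM (1.66-fold lower, 1.51 to 1.84).

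Of 8 catenins, 7 were measured, 1 was higher by size, 0 were lower, and the median was -0.34. Over all 8, which had reads, it was -0.19. CTNNB1, beta-catenin, stood at 121 against 155 FPKM (1.28-fold lower, 1.24 to 1.33), and JUP, plakoglobin, at 79.2 against 100.2. CTNNA1, the alpha-catenin of most tissues, stood at 33.3 against 34.4 FPKM. CTNNA2, the alpha-catenin of neurons, went the other way, at 51.7 against 20.2 FPKM, or 800 against 342 reads (2.42, 2.13 to 2.76), with FPKM summed over 4 entries. In reads CTNNA2 lay below CTNNA1, which had 1999 against 2134. CTNNAL1 and CTNND2 stood at 17.3 against 22.4 and 0.753 against 1.44 FPKM.

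**Figure D4:**
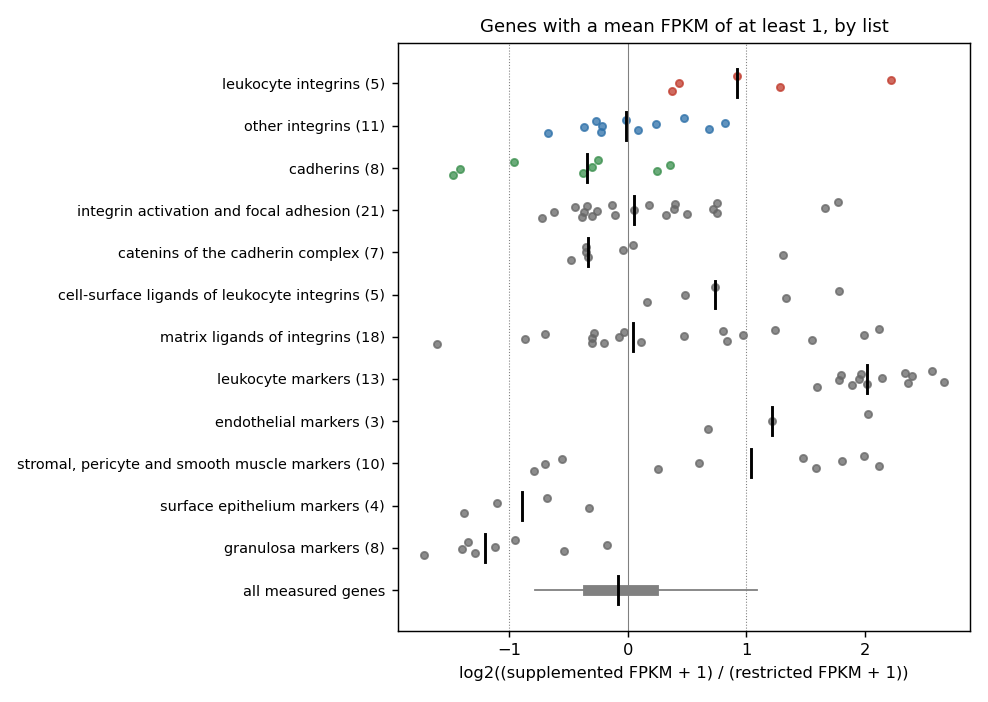
Log2 ratio of FPKM plus 1 for every measured gene of each list (points, number in brackets) with the list median as a black bar. The bottom row gives the median, quartiles and 5 to 95 percent range of all measured genes. Leukocyte integrins spread between 0.38 and 2.22, with 4 of the 5 below the lowest leukocyte marker, and the measured cadherins and the measured catenins each have a median of -0.34.

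Cell-surface ligands of the leukocyte integrins were counted likewise. Of the 9 in the table, 5 were measured, 2 were higher by size and 0 lower, with a median of 0.73. ICAM1, the ligand of LFA-1 on activated endothelium and other cells, stood at 23.2 against 6.02 FPKM (3.89, 3.42 to 4.44) and is called in the authors' deposited table (q = 0.0159). ICAM3, a ligand on resting leukocytes, stood at 6.27 against 1.88 FPKM. VCAM1, the ligand of ITGA4 with ITGB1, had 626 against 569 reads (1.14, 1.02 to 1.28), and MADCAM1, the ligand of ITGA4 with ITGB7, had 4 against 0. F11R, JAM2 and JAM3, junction proteins that leukocyte integrins bind, stood at 18.8 against 10.9, 2.10 against 1.22 and 78.6 against 70.1 FPKM.

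Of 21 matrix ligands in the table, 18 were measured, 4 were higher and 1 was lower by size, with a median of 0.04. FN1, fibronectin, the ligand of ITGA5, stood at 30.3 against 9.66 FPKM (3.14, 2.97 to 3.33). The type I collagen chains COL1A1 and COL1A2 were 4.05-fold and 4.48-fold higher, and LAMB1, a laminin chain, 2.41-fold higher. CYR61, a matricellular ligand of alpha V integrins, stood at 26.6 against 83.1 FPKM (3.12-fold lower, 2.86 to 3.41). Stromal and smooth muscle markers, among which the same collagens count, had a summed FPKM of 1243 against 630. Of their 11 intervals, 7 lay above 1 and 3 below, beside 17.5% and 26.8% over all genes with reads. The part of stromal and smooth muscle cells in the matrix and ITGA5 values was not tested.

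Among other adhesion receptors of blood and vessel cells, 3 of 5 in the table were measured. CD44, the hyaluronan receptor, stood at 40.4 against 5.81 FPKM, a ratio of 6.95 (6.09 to 7.96), whose interval overlapped that of ITGB2 and lay above that of ITGAX. CD47, an integrin-associated protein of nearly all cells, stood at 19.4 against 19.5 FPKM (1.01-fold lower, 0.867 to 1.17).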

How the data were processed

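The labels describe 1 TruSeq library per diet group, made from 5 µg of RNA with 15 PCR cycles. Per the submitters' processing notes, TopHat and Cuffdiff were used with the genome build Oar_v3.1, and no versions are stated. The sources used here do not give the annotation. There are 22881 deposited transcript entries. Its scaled reads are a signal that the authors made by dividing counts by 1 size factor per library, so 1 read is worth 1.02 (supplemented) or 0.983 (restricted). Reads recovered this way were whole, to within 0.02, for 98.5% and 98.3% of entries above 0. Per the file headers, the other value columns are the authors' FPKM. The authors' p-values and q-values were copied from the deposited table and compare 2 libraries, not diets.

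Reads and FPKM were summed per gene name. Each of the 4419 unnamed entries was kept as a gene of its own, so counts over all genes include them. Locus coordinates are those of the table, written 1-based, and can cover overlapping genes. Of the 48 member names, 47 match a RefSeq symbol of assembly ARS-UI_Ramb_v3.0. Measured means a mean FPKM of at least 1, and the pseudocount was 1. With 1 library per group no count model could be fitted. Every member was named, with up to 5 measured genes of largest ratio per partner list; further list genes were named after their values were seen. Members, lists and rules were chosen with earlier results of these data known. The interval and size rules were tested on simulated data drawn with counting error only. Variation between ewes or libraries was not simulated. Python 3.11.15, scipy 1.17.1 and pandas 2.3.3 were used.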

Additional observations from a re-analysis of the deposited data

How the results depend on the processing

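The median log2 ratio of the leukocyte integrins (0.92) was 1.37 with a pseudocount of 0.1, 0.38 with 5, 0.48 without a filter and 2.22 with a filter at mean FPKM 5, where ITGB2 alone is left. It was 1.08 by share of all reads. Their count higher by size (2) was 3 by share of all reads or with a pseudocount of 0.1, and 1 with a pseudocount of 5, with the filter at 5, and at a threshold of 2. The cadherin median (-0.34) was -0.029 without a filter. Cadherins lower by size (2) became 3 with a pseudocount of 0.1, 1 with a pseudocount of 5 or the filter at 5, and 0 at a threshold of 2. With a pseudocount of 0.1, 1 other integrin was lower by size (0 as reported). Centring on 8 granulosa markers, themselves lower with a median of -1.21, was added after seeing the data. It gave medians of 1.90, 1.08 and 0.76 for leukocyte integrins, other integrins and cadherins, 5 leukocyte integrins higher and 0 cadherins lower by size, and 0 other integrins and 3 cadherins with intervals below 1, and it left 1 of 11 measured other integrins and 3 of 8 cadherins below 0, where 6 and 6 were below as reported. All 7 leukocyte intervals lay above 1 under each scaling tried. With the most abundant entry per name, ITGA9 was no longer measured. The other integrins then had a median of -0.11 (-0.01 as reported), and the medians of the leukocyte integrins and cadherins stayed as they were. Placing ITGA4 with the other integrins changed no median of measured members, since it is not measured. Over all members with reads, the leukocyte integrin median then went from 0.48 to 0.67. That of the other integrins went from -0.01 to 0.02. No paired analysis was possible because each group has 1 library. Members with few reads, such as CDH5 with 21 against 16, carry intervals too wide to show a 2-fold difference.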
